A study of Mus musculus with 11 samples.

Results

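Esrp1, Esrp2, Grhl1, Grhl2, Ovol1, Ovol2, Elf3, Ehf and Klf5 are regulators that keep epithelial cells epithelial, and their expression was followed in the MamBo lines, which lose or keep HER2. They were taken from the deposited table by gene symbol, with earlier results of these data known, and all 9 were found among its 21846 genes. RNA sequencing gave 11 libraries. All lines came from mammary tumors of virgin female FVBhuHER2 mice, which carry a human HER2 transgene, so every group shared that transgene and the FVB background.

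MamBo89HER2stable, from tumor A, keeps HER2 and gave 4 libraries, namely 2 untreated, 1 kept in trastuzumab for 60 days, and 1 given trastuzumab for 30 days and then grown for 30 days without it. MamBo43HER2labile, from tumor B, is HER2-positive in culture and gave 1 untreated library. MamBo43 TRT denotes MamBo43 cells seeded at high density that had lost HER2 under trastuzumab, with 1 library on each of the same 2 schedules. The study still found a small share of HER2-positive cells and some islets of polygonal cells in MamBo43 cultures kept in trastuzumab. MamBo38HER2loss, grown from a HER2-negative tumor that arose from injected MamBo43 cells, gave 2 untreated libraries and 1 on each schedule. Trastuzumab, an antibody against human HER2, was used at 30 µg/ml. The 6 MamBo38 and MamBo43 TRT libraries are HER2-negative and the other 5 HER2-positive by the study's description. All HER2-negative libraries came from tumor B and all MamBo89 libraries from tumor A, so HER2 status and tumor of origin cannot be told apart between MamBo38 and MamBo89. Each line stands for 1 tumor or, for MamBo38, 1 tumor grown from a line.

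Total counts ran from 17040454 to 27127662 per library, with a median of 20592201. In MamBo38, 1 untreated library carries the same number code in its name as all libraries of the other lines (called here the shared code), and the other 3 carry a different code. The untreated MamBo89 library named AG3 is not described further by its label, while the study lists a MamBo89 clone among its samples. Levels are given as CPM, the count of a gene over the library total scaled by the TMM method, and mean ± SD is over libraries. A gene was called higher or lower when the edgeR quasi-likelihood test gave a Benjamini-Hochberg adjusted p under 0.1 over all genes tested and the change was at least 2-fold.

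The splicing regulators ESRP1 and ESRP2 bind RNA and set the epithelial exon choice of many transcripts. The grainyhead-like factors GRHL1 and GRHL2 hold open and activate enhancers of junction genes, and GRHL2 is known to act against ZEB1. OVOL1 and OVOL2 are zinc finger repressors, best known for restraining ZEB1 and other drivers of epithelial-mesenchymal transition (EMT). ELF3 and EHF are ETS factors of epithelia, and KLF5 is a Kruppel-like factor of proliferating epithelial cells, found in basal and luminal mammary cells. ZEB and SNAI proteins bind E-box sequences and can silence epithelial genes, which makes promoters of these regulators of interest where the regulators move together.

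RefSeq windows of 300 bases, from 250 before to 50 after a start site (GRCm38.p6), were at hand for 3 of the 9 genes. They are shown because the 3 genes are among those lower together in HER2-negative cells. Capitals mark matches, on either strand, to CACCTG (the E-box bound by ZEB and SNAI), AACCGGTT or AACNNGTT (grainyhead), AGGAAG (ETS) or CCACCC (Kruppel-like). A reverse match is written as its complement on the printed strand, and every AACCGGTT is also an AACNNGTT.
Elf3, chr1:135258423-135258722, minus strand: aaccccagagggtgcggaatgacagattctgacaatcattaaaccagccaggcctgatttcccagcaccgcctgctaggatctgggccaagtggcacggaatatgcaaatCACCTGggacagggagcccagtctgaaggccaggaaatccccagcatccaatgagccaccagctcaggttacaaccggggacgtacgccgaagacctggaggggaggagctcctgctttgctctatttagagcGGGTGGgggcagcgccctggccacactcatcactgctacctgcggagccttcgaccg
Ovol2, chr2:144331313-144331612, minus strand: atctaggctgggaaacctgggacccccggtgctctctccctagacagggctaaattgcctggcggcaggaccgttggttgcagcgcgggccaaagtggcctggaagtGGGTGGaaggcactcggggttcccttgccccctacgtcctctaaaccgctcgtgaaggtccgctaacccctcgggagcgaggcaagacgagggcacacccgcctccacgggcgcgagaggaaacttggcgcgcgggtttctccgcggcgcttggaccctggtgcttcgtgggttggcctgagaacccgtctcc
Grhl1, first start, chr12:24572037-24572336, plus strand: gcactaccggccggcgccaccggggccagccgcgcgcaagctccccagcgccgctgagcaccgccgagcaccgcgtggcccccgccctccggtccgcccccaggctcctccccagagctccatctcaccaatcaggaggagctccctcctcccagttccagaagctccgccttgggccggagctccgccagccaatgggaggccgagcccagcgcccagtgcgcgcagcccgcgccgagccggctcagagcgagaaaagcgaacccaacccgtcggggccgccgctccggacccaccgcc
Grhl1, second start, chr12:24580469-24580768, plus strand: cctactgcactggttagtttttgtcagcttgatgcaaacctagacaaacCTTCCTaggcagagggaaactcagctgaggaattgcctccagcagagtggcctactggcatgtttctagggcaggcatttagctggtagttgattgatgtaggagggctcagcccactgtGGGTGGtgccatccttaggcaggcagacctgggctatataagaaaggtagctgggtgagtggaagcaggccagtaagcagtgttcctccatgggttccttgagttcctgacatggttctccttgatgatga

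The Elf3 window held CACCTG at position -140 from the start and a reverse CCACCC at -7. The Ovol2 window held a reverse CCACCC at -143. The GC-rich Grhl1 window (75.3% GC) held none of the motifs, and the other Grhl1 window held a reverse AGGAAG at -201 and a reverse CCACCC at -81. Such letters are common. Of 32851 promoter windows of the same length, 20.2% held CACCTG, 35.4% AGGAAG, 31.5% CCACCC, 4.20% AACNNGTT and 0.146% AACCGGTT. A match is a stretch of letters and was not tested as a binding site.

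Between HER2-negative and HER2-positive cells, 7 of the 9 regulators were lower in HER2-negative cells, with log2 fold changes from -3.64 for Elf3 to -4.52 for Esrp2. Over all genes, 17.0% of 12364 tested were called lower in this comparison and 32.8% were called in either direction. The median log2 fold change was -4.00 over the 9 regulators and -0.036 over all genes tested. For the same 7 genes, every HER2-negative library lay below every HER2-positive library, which held for 17.2% of all genes tested. With the treatment schedule as a block, Ehf was no longer called (log2 fold change -5.56, edgeR adjusted p = 0.112).

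Esrp1 was not called. It ranged from 0 to 350.2 CPM, with a median of 0.0240, in the 6 HER2-negative libraries and from 316.2 to 479.4 CPM, with a median of 394.4, in the 5 HER2-positive ones. The groups overlapped because the MamBo43 TRT library grown without drug for its last 30 days held 350.2 CPM. The log2 fold change was -2.46 with an SE of 1.84 (edgeR adjusted p = 0.282), and without that library it was -4.57 (edgeR adjusted p = 0.0700), which passed the threshold. Klf5 was the other exception, with a median of 27.8 CPM in HER2-negative and 22.4 CPM in HER2-positive libraries and overlapping ranges (log2 fold change 0.23, SE 0.29, edgeR adjusted p = 0.523).

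**Figure D1:**
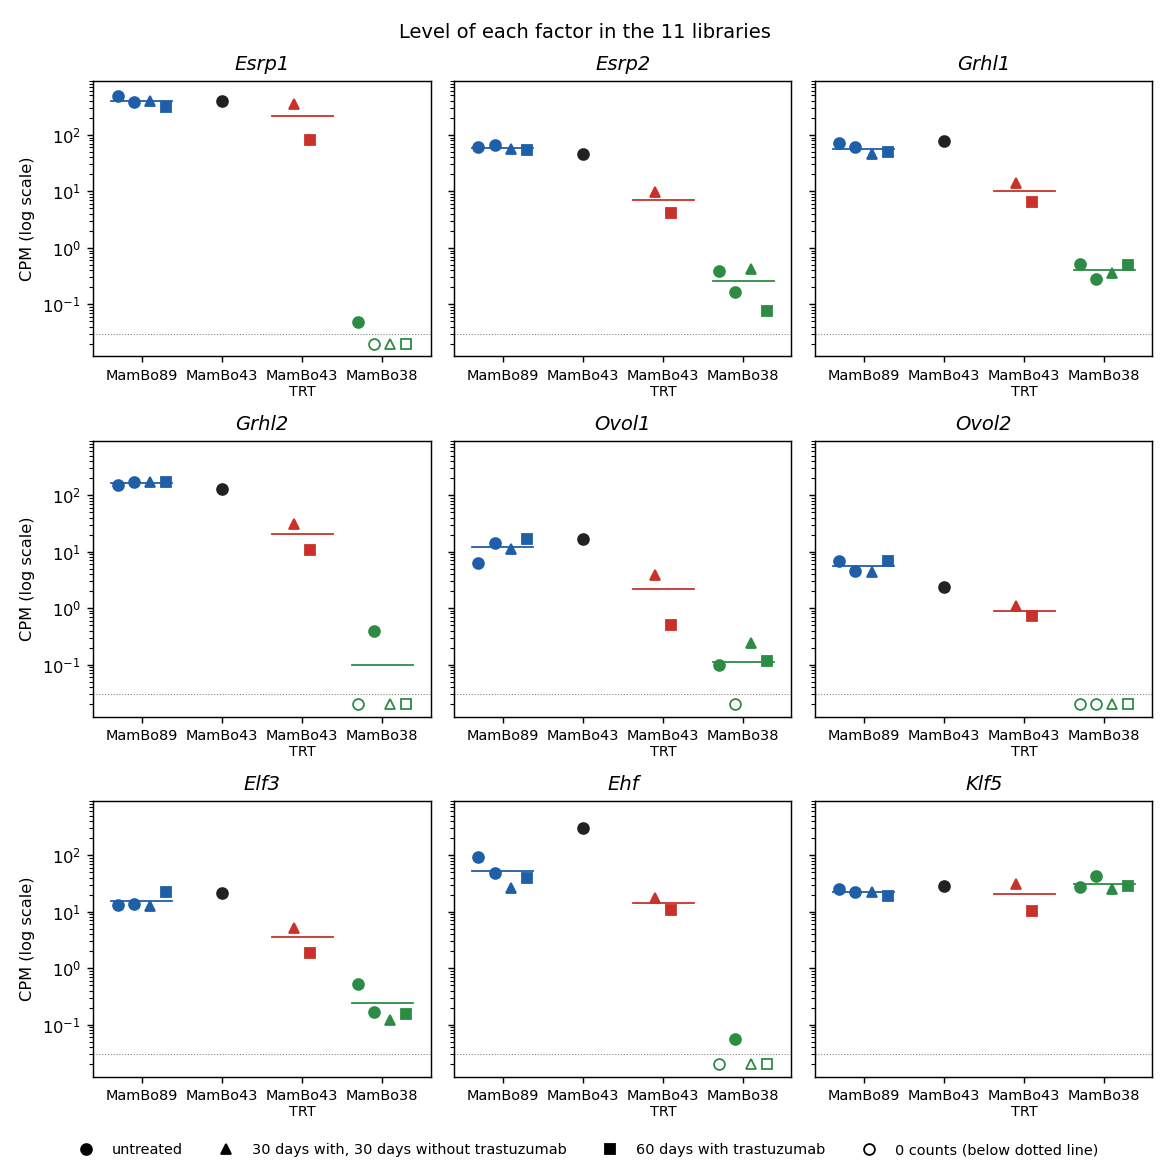
CPM of each regulator on a log axis, 1 point per library, grouped as MamBo89, untreated MamBo43, MamBo43 TRT and MamBo38, with lines at group means above the dotted line. Circles are untreated, triangles are 30 days with and 30 days without trastuzumab, squares are 60 days with it, and open symbols under the dotted line are 0 counts. For 8 genes every MamBo38 library lies below all others, and the Klf5 values overlap across the groups.

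MamBo38 against MamBo89 sets the line that lost HER2 in vivo against the stable line. Here 8 of the 9 regulators were lower in MamBo38 and 1, Klf5, was not called. Over all genes, 22.0% of 13782 tested were called lower, 19.9% higher and 41.9% in either direction. The median log2 fold change over the 9 genes was -7.88, or -7.26 with Ovol2 set at its bound against the floor of 3 counts, and -0.074 over all genes. For the 8 genes every MamBo38 library lay below every MamBo89 library, against 30.5% of all genes. Among libraries with the shared code alone, where MamBo38 has 1 library, the same number of regulators was called, 8.

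Both splicing regulators were lower. Esrp1 (chr4:11331933-11386783, minus strand, GRCm38) held 479.4 and 383.3 CPM in the untreated MamBo89 libraries AG3 and NT, 401.0 CPM after the schedule with 30 days off drug, and 316.2 CPM after 60 days of drug. In MamBo38 it had 1 count in an untreated library (0.0480 CPM) and 0 counts in the other 3. The sums of 30863 against 1 count give a ratio of 32489, with a 95% counting interval from 5831 to 1283300. Esrp2 (chr8:106130319-106136974, minus strand) held 62.3, 66.4, 55.7 and 54.2 CPM in the same MamBo89 libraries and 0.0759 to 0.418 CPM in MamBo38. Its log2 fold change was -7.88 with an SE of 0.42 (edgeR adjusted p = 1.44e-07). All MamBo38 libraries thus held traces of Esrp2, at 2 to 8 counts each, and hardly any Esrp1.

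Both grainyhead-like factors were lower. Grhl2 (chr15:37233036-37363569, plus strand) held 152.5, 170.9, 168.6 and 169.8 CPM in MamBo89, a mean of 165.4 ± 8.70 (SD, n = 4). In MamBo38 all of its 7 counts came from the untreated library with the shared code (0.389 CPM), and the other 3 libraries had 0. The ratio of MamBo89 to MamBo38 was 1934, with a counting interval from 938.2 to 4810. Grhl1 (chr12:24572283-24617391, plus strand) held 57.3 ± 11.7 CPM (SD, n = 4) in MamBo89 and 0.414 ± 0.117 CPM (SD, n = 4) in MamBo38. It had reads in every MamBo38 library, 5 to 13 counts, and its log2 fold change was -7.07 with an SE of 0.33 (edgeR adjusted p = 6.08e-08).

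The OVO-like repressors had the lowest levels per kb of exon in MamBo89 among the 9. Ovol1 (chr19:5549136-5560646, minus strand) held 6.18, 14.2, 11.3 and 16.4 CPM in MamBo89 and 0 to 0.239 CPM in MamBo38. Its log2 fold change was -6.70 with an SE of 0.80 (edgeR adjusted p = 3.62e-05). Ovol2 (chr2:144305175-144332146, minus strand) held 6.82, 4.51, 4.31 and 6.75 CPM in MamBo89 and had no count in any MamBo38 library. Against a floor of 3 counts over the 4 MamBo38 libraries it was at least 153.0-fold lower there. Part of the exons of both genes is covered by genes on the other strand, 18.2% of 75-base windows for Ovol1 and 9.90% for Ovol2. The same share was 4.16% for Elf3, 4.08% for Esrp2, 0.836% for Esrp1 and 0.568% for Grhl2. The kit keeps no strand, so the split of such reads is uncertain.

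Of the epithelial ETS factors, Elf3 (chr1:135253575-135258568, minus strand) held 13.3, 13.6, 12.5 and 22.1 CPM in MamBo89 and 0.119 to 0.528 CPM in MamBo38. Its log2 fold change of -5.95 (SE 0.52, edgeR adjusted p = 3.82e-06) was the smallest of the 8. Ehf (chr2:103263433-103303278, minus strand) varied most within MamBo89 relative to its mean, from 25.8 to 93.1 CPM, with 93.1 CPM in AG3. MamBo38 had 1 Ehf count in all, against 4130 in MamBo89, a ratio of 4348 with a counting interval from 779.9 to 171763. Ehf transcripts were thus near the limit of detection in MamBo38 whichever MamBo89 library is taken.

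Klf5 (chr14:99298691-99315036, plus strand) did not follow the others. It held 25.3, 22.1, 22.4 and 18.5 CPM in MamBo89 and 27.0, 43.6, 25.1 and 28.6 CPM in MamBo38. The ranges overlapped, and the log2 fold change was 0.49 with an SE of 0.30 (edgeR adjusted p = 0.174). It was 1.10 among libraries with the shared code and without AG3, an alternative added after seeing the data. That alternative leaves 1 MamBo38 library. The highest MamBo38 value was in the library with the shared code and the highest MamBo89 value in AG3.

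Levels of other epithelial markers were lower in MamBo38 too, and were mixed in MamBo43 TRT. The summed level of 8 mammary epithelial markers was 2501 to 3833 CPM in MamBo89, 3395 in untreated MamBo43, 490.3 and 2396 in MamBo43 TRT, and 1.35 to 2.73 CPM in MamBo38. Of the 7 tested, 6 were lower in MamBo38 than in MamBo89, against 22.0% of all genes. In MamBo43 TRT 2, Epcam and Cdh1, were lower than in untreated MamBo43, against 15.3% of all genes. Among the 5 not called there, Krt14 was at 2.39 CPM in untreated MamBo43 and at 9.90 and 111.4 CPM in MamBo43 TRT (log2 fold change 4.66, edgeR adjusted p = 0.106), and the log2 fold changes of Krt5 (8.37) and Krt7 (0.51) were also above 0. With 30 days off drug the 6 markers with at least 50 untreated counts kept a median of 78.7% of their untreated level, against 24.0% for the 9 regulators. After 60 days on drug these medians were close, at 10.1% and 8.88%, and each schedule had 1 library. Krt19 was at 0 in MamBo43 and MamBo38, and Krt5 was at 0 in untreated MamBo43 and MamBo38. The summed level of 9 fibroblast markers, which mesenchymal tumor cells also express, was 36.2 to 97.0 CPM in MamBo89, 356.9 in untreated MamBo43, 7391 and 8166 in MamBo43 TRT and 4188 to 4993 CPM in MamBo38. Of the 7 tested, 6 were higher in MamBo38 than in MamBo89, against 19.9% of all genes. In MamBo43 TRT 6 were higher than in untreated MamBo43, against 13.2% of all genes. Dcn, Lum and Thy1 were at 0 in MamBo89 and Lum in every group. Among leukocyte markers, Ptprc, Cd3e, Ms4a1 and Adgre1 were at 0 in all MamBo89 and MamBo43 libraries, Cd3e, Ms4a1 and Adgre1 were at 0 in MamBo38, and Cd68, a macrophage marker that other cells also express, was at 27.1 to 49.7 CPM in MamBo38 and at most 16.7 CPM elsewhere. The summed levels of 5 endothelial and 4 adipocyte markers were at most 2.72 CPM in any library. The part of cell mixture in these results was not tested. In such bulk RNA, fewer cells that express a gene and less RNA per cell cannot be told apart.

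**Figure D2:**
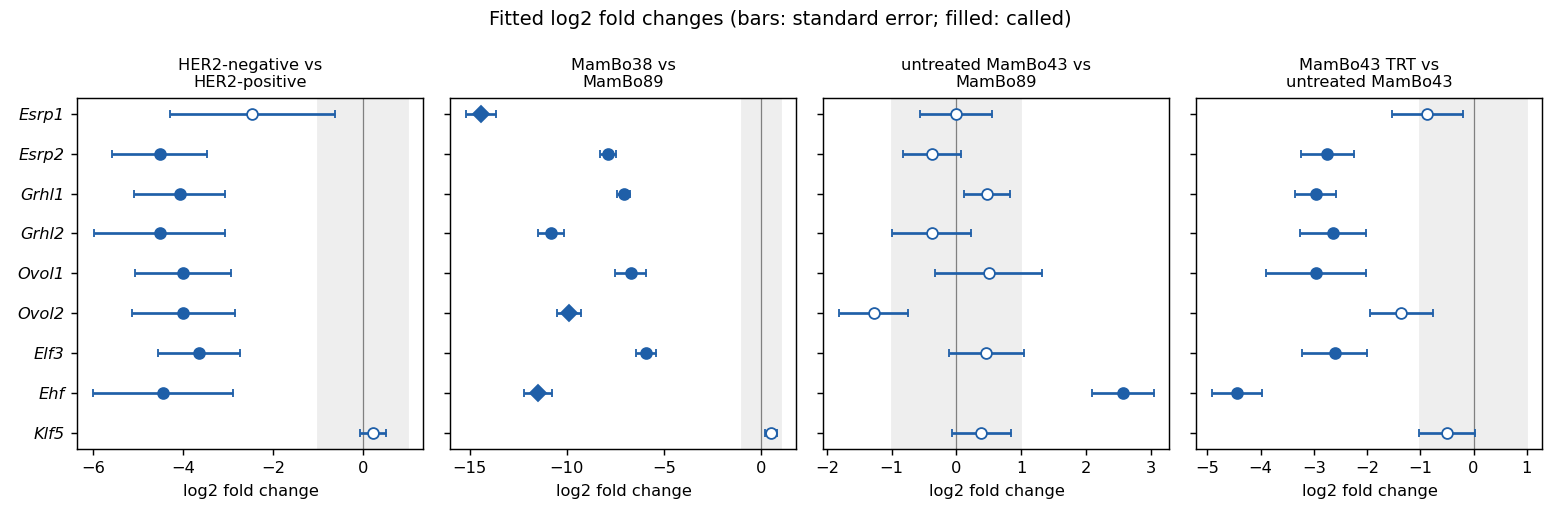
Fitted log2 fold changes of the 9 regulators in 4 comparisons, with bars of 1 SE. Filled symbols were called, open ones were not, the grey band spans changes under 2-fold, and diamonds mark genes with at most 1 count over the 4 MamBo38 libraries, whose fitted values depend on the prior count. In the comparison of MamBo38 with MamBo89 8 genes are far below 0, and in that of untreated MamBo43 with MamBo89 Ehf alone is called.

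Untreated MamBo43 was compared with MamBo89 to ask whether the labile line differed before it lost HER2. Of the 9 regulators 1 was called, Ehf, against 18.9% of all 13782 genes in either direction, 11% called higher and 7.86% lower. Ehf stood at 306.3 CPM in MamBo43, over 3 times the highest MamBo89 library at 93.1 CPM (log2 fold change 2.57, SE 0.48, edgeR adjusted p = 0.00421). Without AG3, the MamBo89 library with most Ehf, the log2 fold change was 3.07. Esrp1 was at 394.4 CPM against a mean of 394.9 ± 67.1 (SD, n = 4), a log2 fold change of -0.0015 with an SE of 0.56 (edgeR adjusted p = 1). Ovol2 was at 2.31 CPM, below the 4.31 to 6.82 CPM of MamBo89, and was not called (log2 fold change -1.28, SE 0.53, edgeR adjusted p = 0.140), although DESeq2 called it (DESeq2 adjusted p = 0.0887). The remaining 6 genes had log2 fold changes from -0.38 to 0.50 and were not called. MamBo43 had a single untreated library, so its spread was taken from the other groups.

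Levels between genes can be compared per kilobase of exon. On that scale, as mean CPM per kb, MamBo89 had Esrp1 at 62.6 ± 10.6, Grhl2 at 19.2 ± 1.01, Esrp2 at 13.7 ± 1.32, Grhl1 at 10.4 ± 2.11, Ehf at 9.26 ± 5.24 and Elf3 at 6.94 ± 2.03 (SD, n = 4 for each). Klf5 at 4.24 ± 0.529, Ovol1 at 3.45 ± 1.27 and Ovol2 at 2.65 ± 0.649 CPM per kb closed the order (SD, n = 4 for each). By range, Esrp1 and Grhl2 stood apart from all other genes, and from Esrp2 downwards each gene overlapped the next in the order, except that Elf3 (from 5.65) lay above Klf5 (up to 4.86). Relative to its mean, the Ehf range was the widest, from 4.62 to 16.7 CPM per kb. Untreated MamBo43 kept Esrp1 first at 62.6 CPM per kb and had Ehf next at 54.9, while Grhl2 stood at 14.7 and Grhl1 at 14.4. In MamBo38 Klf5 came first at 5.98 ± 1.63 CPM per kb (SD, n = 4), and every other gene had a mean of at most 0.109.

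MamBo43 TRT was set against untreated MamBo43 to see what changed as the labile line lost HER2 under trastuzumab. In MamBo43 TRT 6 regulators were lower, Esrp2, Grhl1, Grhl2, Ovol1, Elf3 and Ehf, against 15.3% of 13782 genes called lower and 28.5% called in either direction. The median log2 fold change was -2.63 over the 9 genes and 0 over all genes. Esrp1, Ovol2 and Klf5 were not called. For the 6 genes called, levels in MamBo43 TRT lay below all HER2-positive libraries and above all MamBo38 libraries. This order held for 7 of the 9 regulators, with Ovol2 the other one, and for 6.16% of all genes tested.

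Ehf fell most. It went from 306.3 CPM to 17.5 CPM with 30 days on and 30 days off drug and to 10.8 CPM after 60 days (log2 fold change -4.44, SE 0.47, edgeR adjusted p = 0.00105). Those levels lay below all 4 MamBo89 libraries as well. Grhl1 went from 79.6 to 13.8 and 6.60 CPM on the same schedules (log2 fold change -2.97, SE 0.38, edgeR adjusted p = 0.00155). Grhl2 went from 126.9 to 30.4 and 10.6 CPM (log2 fold change -2.63, SE 0.62, edgeR adjusted p = 0.0182). Neither grainyhead-like factor overlapped any HER2-positive library.

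Esrp2 went from 46.1 to 9.65 and 4.18 CPM (log2 fold change -2.74, SE 0.50, edgeR adjusted p = 0.00593). Elf3 went from 21.2 to 5.10 and 1.88 CPM (log2 fold change -2.61, SE 0.61, edgeR adjusted p = 0.0147). Ovol1 went from 17.0 to 3.92 and 0.499 CPM (log2 fold change -2.96, SE 0.95, edgeR adjusted p = 0.0465). The Ovol1 call was lost without the 60-day library (edgeR adjusted p = 0.116) and in a fit of the 3 MamBo43 libraries alone (edgeR adjusted p = 0.120).

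Of the 3 genes not called, Esrp1 was at 394.4 CPM before treatment, 350.2 CPM with 30 days off drug and 82.3 CPM after 60 days (log2 fold change -0.87, SE 0.67, edgeR adjusted p = 0.361). Without the library grown off drug it was called lower (log2 fold change -2.29, edgeR adjusted p = 0.00682). Klf5 split in the same way, at 28.8, 30.5 and 10.4 CPM (log2 fold change -0.50, SE 0.53, edgeR adjusted p = 0.508), and was called lower without the library grown off drug (log2 fold change -1.50, edgeR adjusted p = 0.0274). Ovol2 had 59 counts (2.31 CPM) before treatment and 22 and 19 counts (1.08 and 0.729 CPM) after it, a difference that did not pass the test (log2 fold change -1.36, SE 0.59, edgeR adjusted p = 0.132) and passed in 3 of 20 alternatives.

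The 2 schedules left different amounts. After 60 days on drug, 20.9% of the untreated Esrp1 level remained, against 88.8% with 30 days off drug. The other members kept 2.94% (Ovol1) to 36.2% (Klf5) after 60 days. With 30 days off drug Ehf kept 5.71%, Grhl1 17.4%, Esrp2 20.9%, Ovol1 23.1%, Grhl2 24.0%, Elf3 24.1% and Ovol2 46.7%, while Klf5 stood at 105.9%. All 9 genes were higher in the library grown off drug, against 50.9% of the 10996 genes with at least 50 counts in untreated MamBo43. The counting intervals of the 2 schedules were apart for 8 of the 9 genes, and those of Ovol2 overlapped (27.2% to 77.4% and 17.8% to 53.7%). Each schedule had 1 library, so the difference has no replicate check and no test was made. Intervals and floors cover counting error only.

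**Figure D3:**
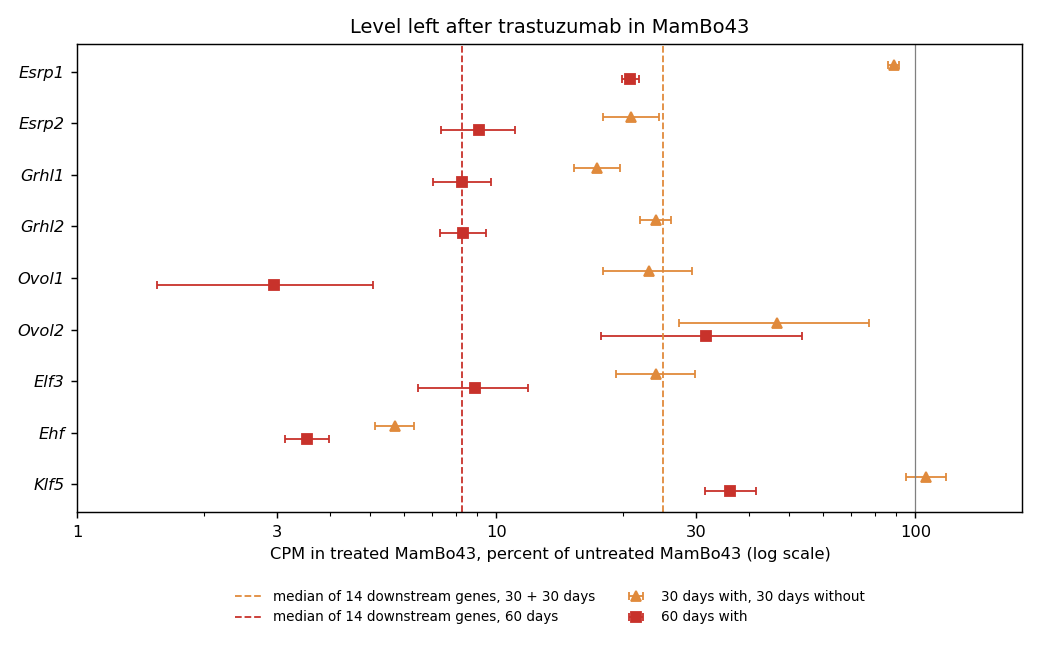
CPM of each regulator in the MamBo43 TRT libraries as percent of untreated MamBo43, on a log axis, with 95% counting intervals. Triangles are 30 days with and 30 days without trastuzumab, squares are 60 days with it, and dashed lines are medians of 14 genes downstream of grainyhead-like factors (25.0% and 8.29%). Every triangle lies to the right of its square, and Esrp1 and Klf5 with 30 days off drug lie near 100%.

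The balance between paralogs lay outside the HER2-positive range for the ESRP pair on both schedules and, after 60 days only, for the OVO-like pair. Esrp1 exceeded Esrp2 per kb of exon by 3.97 to 5.30 times in the MamBo89 libraries, by 5.89 times in untreated MamBo43, and by 25.0 and 13.5 times in MamBo43 TRT with 30 days off drug and after 60 days. Grhl2 exceeded Grhl1 by 1.36 to 2.32 times in MamBo89 and stood at 1.03, 1.42 and 1.03 times Grhl1 in untreated MamBo43 and the same MamBo43 TRT libraries. Ehf exceeded Elf3 by 5.75 times in untreated MamBo43 and stood at 0.695 to 2.78 times Elf3 in MamBo89 and at 1.36 and 2.29 times in MamBo43 TRT. Ovol1 stood at 0.550 to 1.90 times Ovol2 in MamBo89, at 4.46 times in untreated MamBo43, and at 2.20 and 0.414 times in MamBo43 TRT. The Esrp1 to Esrp2 ratios of MamBo43 TRT were above all those of HER2-positive cells, while the grainyhead-like and ETS ratios of MamBo43 TRT fell inside the HER2-positive range. The Ovol1 to Ovol2 ratio after 60 days lay below that range and the ratio with 30 days off drug inside it. The ratio after 60 days rests on 13 Ovol1 and 19 Ovol2 counts, so its counting error is large. These ratios are descriptions and were not tested.

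Trastuzumab was also given to lines whose HER2 status did not change. In MamBo89, 0 of the 9 regulators and 0 of 13782 genes (0%) were called by edgeR, with 724 genes at an unadjusted p under 0.05 and 29 called by DESeq2. Ehf had the largest log2 fold change, with 93.1 and 49.1 CPM untreated and 25.8 and 38.6 CPM treated (log2 fold change -1.14, SE 0.39, edgeR adjusted p = 0.721). Treated libraries lay below untreated ones for Ehf, and the difference did not pass the correction. The other 8 had log2 fold changes between -0.47 and 0.45. In MamBo38, 0 of 13782 genes (0%) were called by edgeR, with 230 at an unadjusted p under 0.05 and 1 called by DESeq2. Klf5 was at 27.0 and 43.6 CPM untreated and 25.1 and 28.6 CPM treated (log2 fold change -0.40, SE 0.44, edgeR adjusted p = 1), and the other 8 had at most 13 counts in any MamBo38 library.

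Whether trastuzumab changed MamBo43 more than MamBo89 was tested as an interaction. The fall was larger in MamBo43 for 6 regulators, against 11.2% of 13782 genes called in that direction and 22.2% in either. The differences of log2 fold changes were -2.50 for Grhl1 (SE 0.50, edgeR adjusted p = 0.0171), -3.30 for Ehf (SE 0.60, edgeR adjusted p = 0.0153) and -2.52 for Esrp2 (SE 0.66, edgeR adjusted p = 0.0375). They were -2.98 for Elf3 (SE 0.79, edgeR adjusted p = 0.0400), -2.70 for Grhl2 (SE 0.81, edgeR adjusted p = 0.0620) and -3.41 for Ovol1 (SE 1.24, edgeR adjusted p = 0.0936). The calls of Grhl1 and Ehf held in all 18 alternatives. That of Ovol1 was lost in 11 of 18, that of Grhl2 in 5, and those of Esrp2 and Elf3 in 1 each. Without the MamBo89 library kept 60 days in trastuzumab 2 genes were called in place of 6. Esrp1 (-0.61, SE 0.88, edgeR adjusted p = 0.688), Ovol2 (-1.33, SE 0.76, edgeR adjusted p = 0.278) and Klf5 (-0.29, SE 0.69, edgeR adjusted p = 0.824) were not called.

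MamBo43 TRT and MamBo38 are both classed as HER2-negative by the study and come from the same tumor. This sets loss under drug in culture against loss in vivo. The study reports a small HER2-positive share left in MamBo43 cells kept in trastuzumab, and no surface HER2 in MamBo38. The part of such remaining cells in the differences below was not tested. The 8 regulators other than Klf5 were higher in MamBo43 TRT, against 10.2% of 13782 genes called higher and 20.4% in either direction. Every MamBo38 library lay below both MamBo43 TRT libraries for those 8, against 30.6% of all genes tested. The median log2 fold change was 4.76 over the 9 genes, or 4.59 with Ovol2 at its bound, and 0.0096 over all genes.

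Grhl2 was 225.8 times as high in MamBo43 TRT as in MamBo38, with a counting interval from 109.1 to 563.2. For Esrp1 the ratio was 16375 (counting interval 2938 to 646833) and for Ehf 1126 (counting interval 201.4 to 44541), each resting on 1 MamBo38 count. Ovol2 was at least 24.1-fold higher in MamBo43 TRT against 3 counts over the MamBo38 libraries. The log2 fold changes of Esrp2 and Grhl1 were 4.76 (SE 0.45, edgeR adjusted p = 5.82e-05) and 4.57 (SE 0.34, edgeR adjusted p = 1.51e-05). Those of Ovol1 and Elf3 were 4.24 (SE 0.87, edgeR adjusted p = 0.00540) and 3.80 (SE 0.55, edgeR adjusted p = 0.000832). The Ovol1 call was lost without the library grown off drug (log2 fold change 2.13, edgeR adjusted p = 0.134), which left the 60-day library with 13 counts. Klf5 did not pass the test (log2 fold change -0.60, SE 0.38, edgeR adjusted p = 0.255), and was called lower in MamBo43 TRT without the library grown off drug (log2 fold change -1.56, edgeR adjusted p = 0.0160).

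The genes that grainyhead-like factors are known to activate moved beside them. All 14 genes of such a list were lower in MamBo38 than in MamBo89, against 22.0% of all genes called lower. Their median log2 fold change was -10.67, or -10.46 with the 3 genes at 0 in MamBo38 at their bound, against -0.074 over all genes. In MamBo43 TRT 13 of 14 were lower than in untreated MamBo43 (median -2.56), against 15.3% of all genes. The other 1, Cldn4, was not called. All 14 were higher in MamBo43 TRT than in MamBo38, against 10.2% of all genes called higher. Ap1m2, an adaptor subunit for basolateral sorting, held a mean of 73.8 CPM in MamBo89, 15.6 CPM in MamBo43 TRT and 0 counts in MamBo38. Spint1, an inhibitor of matriptase, held 72.0, 25.3 and 0 CPM in the same groups. Prss8 (prostasin), a membrane protease, held 30.6, 2.27 and 0 CPM, and the adhesion molecule Epcam, which the epithelial markers above also hold, had 641.2, 94.6 and 0.121 CPM. The list kept a median of 25.0% of the untreated MamBo43 level with 30 days off drug and 8.29% after 60 days, beside 24.0% and 8.88% for the 9 regulators and 94.4% and 93.3% for all genes with at least 50 counts.

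The EMT transcription factors, several of which OVOL and GRHL proteins repress, went the other way. Of 8 factors 6 were higher in MamBo38 than in MamBo89 and 2, Snai1 and Twist1, were not called (median log2 fold change 5.21), against 19.9% of all genes called higher. In MamBo43 TRT 5 of 8, Zeb1, Zeb2, Twist2, Prrx1 and Foxc2, were higher than in untreated MamBo43 (median 1.81), against 13.2% of all genes. Zeb1 held 0.175 to 1.80 CPM in MamBo89, 2.86 in untreated MamBo43, 47.5 and 54.2 in MamBo43 TRT and 98.4 to 112.1 CPM in MamBo38. Zeb2 held 0.645 to 2.68, 3.76, 115.8 and 144.8, and 105.6 to 137.6 CPM in the same groups. Prrx1 held at most 0.146 CPM in MamBo89 and was already at 44.5 CPM in untreated MamBo43, where the 9 regulators were largely at MamBo89 levels. Twist2 had a mean of 0.240 CPM in MamBo89 and 17.0 CPM in MamBo38.

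**Figure D4:**
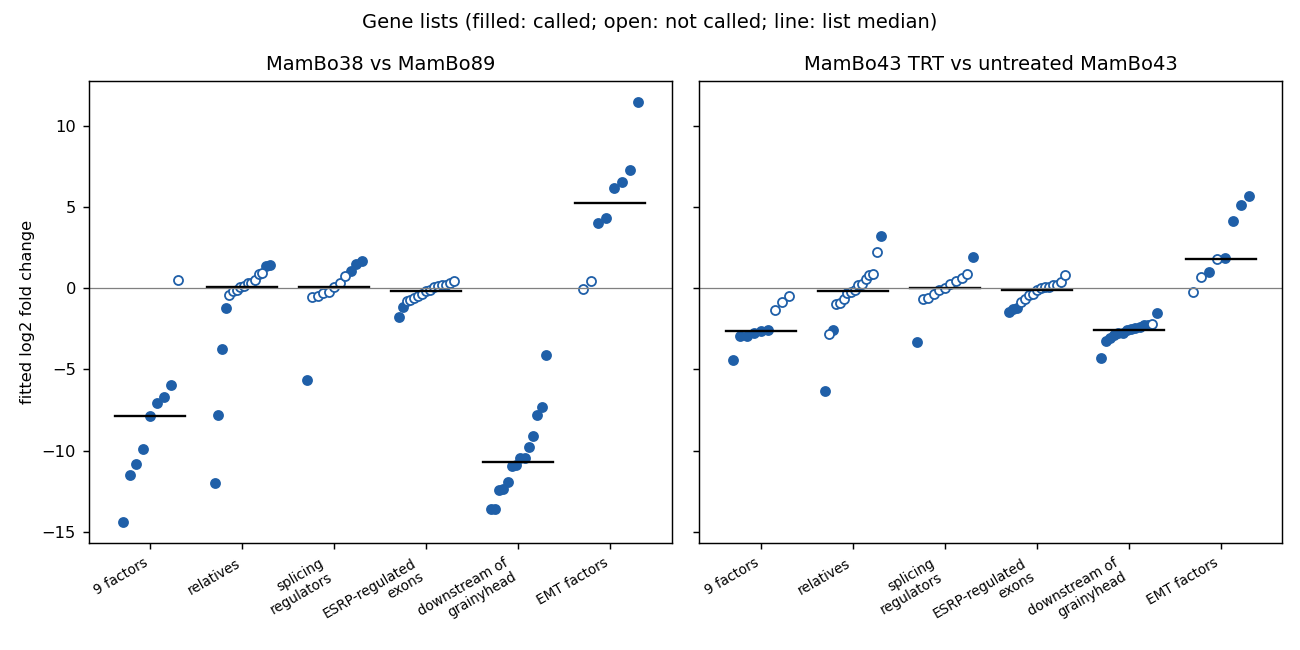
Fitted log2 fold changes of the 9 regulators and of 5 gene lists, 1 point per tested gene, in MamBo38 against MamBo89 (left) and MamBo43 TRT against untreated MamBo43 (right). Filled points were called and black lines are list medians, and values of genes at 0 in a group depend on the prior count. The regulators, other than Klf5 at 0.49 in the left panel, and the genes downstream of grainyhead-like factors lie below 0 in both panels, the EMT factors mostly above, and the other lists around 0.

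Relatives from the same families were called about as often as all genes. Of 16 tested, 4 were lower and 2 higher in MamBo38 than in MamBo89 (median log2 fold change 0.073), against 22.0% of all genes lower and 19.9% higher. Elf5, the ETS factor of alveolar luminal cells, held a mean of 73.7 CPM in MamBo89, 31.4 in untreated MamBo43, 0.361 in MamBo43 TRT and 0.0139 CPM in MamBo38. Grhl3, a grainyhead-like factor of stratified epithelia, had a mean of 1.33 CPM in MamBo89 and no count in MamBo38. Tfcp2l1 was lower (log2 fold change -3.73), while its broadly expressed relative Tfcp2 was higher (1.42), as was Klf4 (1.34), and Klf2 was lower (-1.26). In MamBo43 TRT against untreated MamBo43, 2 relatives of 16 were lower, Elf5 (-6.35) and Klf2 (-2.61), and 1 was higher, Elf4 (3.19), against 15.3% and 13.2% of all genes.

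Of 11 other splicing regulators tied to epithelial or mesenchymal exon choice, 1 was lower and 3 higher in MamBo38 than in MamBo89 (median log2 fold change 0.089), beside 41.9% of all genes called in either direction. Rbm47, which promotes epithelial exon choice, was lower (-5.66), and Mbnl2 (1.66), Rbfox2 (1.47) and Ptbp2 (1.02) were higher. Of 15 genes that carry exons set by ESRP proteins, 2 were lower and 0 higher (median -0.15), against 22.0% of all genes called lower. The genes called were Tcf7l2 (-1.79) and Ctnnd1 (-1.13). In MamBo43 TRT 3 of these 15 were lower than in untreated MamBo43, Tcf7l2, Ralgps2 and Ctnnd1, and 0 higher, against 15.3% and 13.2% of all genes. Klf2, Elf4, Ralgps2, Foxc2 and Cldn4 are named here after their values were seen. Gene-level counts do not show which exons were used, so the splicing of these genes was not measured.

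Across the 11 libraries the 8 genes other than Klf5 were highly correlated on the log2 CPM scale. These libraries include those of MamBo38, where the 8 genes had at most 13 counts each. Within MamBo43 the genes parted, from 5.71% (Ehf) to 88.8% (Esrp1) of the untreated level with 30 days off drug. Pearson's r over the 28 pairs ranged from 0.919 to 0.988 with a median of 0.969, and r of Klf5 with the others ranged from -0.408 to -0.242. These values are descriptions over libraries that are not independent, since libraries of a line share their cells of origin. Among 9234 genes with a mean of at least 10 CPM, the genes most like Esrp1 were Pcsk6 and Dsp (r = 0.998 for each). Those most like Grhl2 were Lad1 and St14 (r = 0.997 and 0.996), those most like Grhl1 were Ildr1 and Marveld3 (r = 0.997 and 0.996), and those most like Ehf were Fermt1 and Mpzl2 (r = 0.994 and 0.993). Klf5 had no such close match, with Ppp2r2d (r = 0.899) and Rfc3 (r = 0.885) first.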

How the data were processed

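Total RNA of MamBo cells was made into 11 libraries with the TruSeq RNA Sample Prep Kit v2, which keeps no strand, and read as single-end 75-nucleotide reads. The authors demultiplexed with bcl2fastq and made gene counts with STAR 2.5 and RSEM 1.3.0 on mm10 (per the submitters' processing notes). The deposited expected counts are whole numbers with no normalization, 21846 genes by 11 libraries.

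Counts were scaled by TMM and tested with edgeR 4.0.16 (R 4.3.3) by the quasi-likelihood method after filterByExpr (minimum count 10, minimum total 15, prior count 0.125). The study's thresholds were kept (adjusted p below 0.1, change of 2-fold or more). HER2 status was fitted with 2 groups, the lines with 4 groups, and trastuzumab with 6 groups (line by treatment), always on all 11 libraries. The 60-day library and the library with 30 days off drug were replicates of the treated group. The SE of a log2 fold change was taken from its size and the F statistic. Scripts were tested on simulated counts.

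The 9 genes and the lists were chosen with earlier results of these data known. The text names all 9, up to 4 list genes with the largest change between MamBo38 and MamBo89 and any called against their list, and up to 2 genes most like a member in log2 CPM (prior count 2). Ratios carry exact 95% binomial counting intervals on summed counts, and a group at 0 was set to 3 counts over its libraries. Exon lengths and positions came from the GENCODE annotation of GRCm38, the assembly of mm10, and promoters from RefSeq. The treated libraries of a line had different schedules, but nothing says that its untreated libraries came from separate cultures, so p-values measure the spread between these libraries, which may be technical in part. Alternatives were DESeq2 1.42.0, RLE size factors, other filters and thresholds, the library code as a covariate, the treatment schedule as a block, subsets of libraries, and leaving out each library in turn.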

Additional observations from a re-analysis of the deposited data

Results flagged for a closer look

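In 18 sets of 4 libraries, the 9 genes in MamBo89 and in MamBo38, 6 values stood apart from the other 3 by a gap of more than 0.829 of the range (Dixon's 95% limit for 4 values). Chance flags about 1 in 20 sets of continuous values. That rate does not hold here, since 3 of the sets, those of Esrp1, Grhl2 and Ehf in MamBo38, have 3 libraries at 0 and are then flagged by any count in the other one. Grhl2 was lowest in the MamBo89 library AG3, at 152.5 CPM against 168.6 to 170.9. Elf3 was highest in the MamBo89 library kept 60 days in trastuzumab, at 22.1 CPM. In MamBo38, Esrp1 (0.0480 CPM, 1 count) and Elf3 (0.528 CPM, 11 counts) were highest in the untreated library without the shared code, and Grhl2 (0.389 CPM, 7 counts) and Ehf (0.0556 CPM, 1 count) in the untreated library with it. The values of 1 count are the smallest a library can show above 0.

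For 6 genes the trastuzumab change in MamBo43 differed from that in MamBo89 by the interaction test of edgeR. The log2 differences, MamBo43 minus MamBo89, were -2.52 for Esrp2, -2.50 for Grhl1, -2.70 for Grhl2, -3.41 for Ovol1, -2.98 for Elf3 and -3.30 for Ehf. MamBo43 had 1 untreated library, and the lines came from different tumors.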

How the results depend on the processing

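Over the alternatives, 1215 of 1264 log2 fold changes of single regulators kept their direction and their side of the threshold, 13 passed it newly, 22 no longer passed it and 14 changed sign. No alternative moved the median of all genes by over 0.1. The 8 calls in MamBo38 against MamBo89 and in MamBo43 TRT against MamBo38 lost at most 1 member in any alternative. In untreated MamBo43 against MamBo89, 2 regulators were called by DESeq2 in place of 1. In MamBo89, 0 to 1 were called for trastuzumab when single libraries were left out, with Ehf (log2 fold change -1.52, edgeR adjusted p = 0.0318) called without the untreated library NT, which leaves AG3 as the only untreated one. In the interaction, 2 to 8 were called, with 2 of 6 left without the MamBo89 library kept 60 days in trastuzumab. The cause was not tested.

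Changes of sign were all among values not called. Esrp1 in untreated MamBo43 against MamBo89 (-0.0015) became 0.025 with DESeq2 and with RLE size factors and 0.035 with only the compared libraries, and ranged from -0.094 to 0.16 when single libraries were left out. Klf5 in MamBo43 TRT against untreated MamBo43 ranged from -1.50 to 0.083 in this way, and in the interaction from -1.31 to 0.29. Esrp1 in the interaction ranged from -2.04 to 0.092. Trastuzumab in MamBo89 ranged from -0.0083 to 0.16 for Grhl2, from -0.024 to 1.17 for Ovol1, from -0.39 to 0.30 for Ovol2 and from -0.10 to 0.72 for Elf3. In HER2-negative against HER2-positive cells 5 regulators were called by DESeq2, which gave 3 no adjusted p, and Esrp1 was called in untreated libraries only (log2 fold change -13.68, edgeR adjusted p = 0.00113).

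Counts over all genes moved by over 1.5 times in some cases. Untreated MamBo43 against MamBo89 gave 774 genes in untreated libraries only and 1697 with only the compared libraries, against 2604. MamBo43 TRT against untreated MamBo43 gave 2607 without the 60-day library, against 3927. Trastuzumab in MamBo89 gave 29 with DESeq2 and 2148 without the untreated library NT, against 0, and in MamBo38 1 with DESeq2, against 0. The interaction gave 1991 at an adjusted p under 0.05, 1651 with the shared library code only, 1664 without the 60-day MamBo43 library and 1606 without the 60-day MamBo89 library, against 3062. Leaving out untreated MamBo43 gave no value where it is a group. No paired analysis was possible by number because the labels carry no replicate numbers. With the treatment schedule as a block, an alternative added after seeing the data, 62 of 63 values of single regulators kept their call, and Ehf in HER2-negative against HER2-positive cells was lost (log2 fold change -5.56, edgeR adjusted p = 0.112). Depth limits Ovol2 and, in MamBo38, every member but Klf5.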
